A study of Mus musculus with 6 samples.

Results

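The BCL2 family genes described here are Bcl2, Bcl2l1, Mcl1, Bax, Bak1, Bid, Bad, Bbc3, Pmaip1 and Bcl2l11, chosen by symbol and matched to the probe annotation of the array. Of these 10 genes, 9 were matched, by 11 probes, among 19321 genes with a symbol, and Bax was not analysed here. Mouse oligodendrocyte precursor cells, which mature into the myelinating glia of the brain, came from the forebrains of E15.5 embryos of the Jcl:ICR strain. All cultures were kept with the mitogens FGF2 and PDGF-AA. One group of 3 samples carried a control retrovirus and the other group of 3 a retrovirus that knocks down Chd7, a chromatin remodeller, and cells were collected 3 days after infection. Each sample was read on its own Cy5 array, and the number of arrays sets the precision. From the labels it is not known whether replicates were separate cultures, how many cells each virus reached or how the knockdown was built. The p-values therefore reflect only how far these samples spread, and that spread may be technical. Array values below are normalized log2 intensities in the order of replicates 1 to 3.

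Proteins of this family decide whether the outer mitochondrial membrane stays intact. BCL2, BCL-XL (encoded by Bcl2l1) and MCL1 hold the pore-forming effectors BAX and BAK in check. The BH3-only proteins BID, BIM (Bcl2l11), PUMA (Bbc3), NOXA (Pmaip1) and BAD relay death signals by binding the survival proteins, and some of them also activate the effectors directly. Once the membrane is breached, cytochrome c escapes and starts the caspases. Precursor cells of this lineage depend on growth factors such as PDGF-AA for survival. Many of these proteins are also controlled by phosphorylation or turnover, which an RNA measurement does not show.

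The knockdown was visible on the arrays. Chd7 had a log2 intensity of 9.37 ± 0.15 (SD, n = 3) in the control samples and 8.49 ± 0.0536 (SD, n = 3) in the knockdown, on its brighter probe, with no overlap, so 54.3% of the control signal remained there. The log2 fold change of Chd7 was -0.88 (SE 0.0855), with an adjusted p = 0.00112 in limma after Benjamini-Hochberg adjustment over 17390 genes. A dimmer Chd7 probe fell less, by 0.48 on the log2 scale (SE 0.0676, adjusted p = 0.00411 over all probes), to 71.5% of the control signal. The detection limit, the mean of the blank spots plus 2 SD, was a raw signal of 60.6 to 64.0 per array. All 11 probes of the BCL2 family genes lay above it on all 6 arrays. Slopes between scanner gains in the file headers formed a first set of control replicates 1 and 2 with knockdown replicate 2, and a second set of control replicate 3 with knockdown replicates 1 and 3.

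Of the 9 BCL2 family genes tested, 1 fell (Bad), none rose and 8 did not pass at an adjusted p below 0.05. Over all genes tested, 9.64% passed, 4.49% higher and 5.15% lower in the knockdown. The median log2 fold change of the 9 genes was 7.3e-05, beside 7.7e-04 over all genes, and 5 of the 9 were positive. The knockdown and control arrays did not overlap for 4 of the 9 genes, with Bad and Bcl2 lower and Mcl1 and Bid higher, while 29.9% of all genes had groups that did not overlap, 14.5% higher and 15.4% lower. An unadjusted p below 0.05 was reached by 3 of the 9 (Bad, Bid and Mcl1), beside 24.6% of all genes. Of the 11 probes 1 passed, beside 8.85% of all probes. With the replicate number as a block 14.8% of all genes passed, and of the 9 genes again 1 fell and none rose.

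To show the start regions of the genes with the smallest p-values, Bad, Bid and Mcl1, the 250 bases before each annotated start are given 5′ to 3′ on the strand of the gene, from RefSeq on GRCm38.p6. Bad has an upstream start at chr19:6941611-6941860 (plus strand) and a downstream start at chr19:6942312-6942561 (plus strand). Bid lies at chr6:120916825-120917074 (minus strand) and Mcl1 at chr3:95658471-95658720 (plus strand). Capitals mark the GC box, GGGCGG on either strand.
Bad, upstream start: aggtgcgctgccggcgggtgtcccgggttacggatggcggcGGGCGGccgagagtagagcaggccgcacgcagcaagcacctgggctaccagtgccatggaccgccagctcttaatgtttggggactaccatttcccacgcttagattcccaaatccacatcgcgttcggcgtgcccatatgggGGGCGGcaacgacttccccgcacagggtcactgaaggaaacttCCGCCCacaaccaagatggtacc
Bad, downstream start: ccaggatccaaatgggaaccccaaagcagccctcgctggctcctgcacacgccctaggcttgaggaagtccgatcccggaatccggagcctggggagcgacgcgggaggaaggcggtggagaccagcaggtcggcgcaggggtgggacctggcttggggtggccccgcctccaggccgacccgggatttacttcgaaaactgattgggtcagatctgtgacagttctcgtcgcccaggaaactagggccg
Bid: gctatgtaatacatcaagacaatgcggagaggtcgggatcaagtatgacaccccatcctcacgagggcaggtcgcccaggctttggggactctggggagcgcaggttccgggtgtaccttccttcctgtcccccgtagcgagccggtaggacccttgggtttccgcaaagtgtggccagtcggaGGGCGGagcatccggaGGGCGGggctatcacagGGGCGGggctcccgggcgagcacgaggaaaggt
Mcl1: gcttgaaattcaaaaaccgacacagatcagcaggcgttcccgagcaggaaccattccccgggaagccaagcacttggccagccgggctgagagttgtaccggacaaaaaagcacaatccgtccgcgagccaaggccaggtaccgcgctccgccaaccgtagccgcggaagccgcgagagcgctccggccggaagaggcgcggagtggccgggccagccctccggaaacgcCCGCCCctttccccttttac
The GC box, the recognition letters of SP-type factors, occurred 3 times at the upstream start of Bad and not at its downstream start, 3 times at Bid and 1 time at Mcl1. Over all 32851 windows of this length in the table, 32.7% held it, and 10 of 15 windows of the BCL2 family genes did, where windows of the same gene can overlap. These 15 windows belong to Bax and the tested genes other than Pmaip1. The p53 half-site, searched on both strands, was found in 1 of these 15 windows, at Bax, and in 7.1% of all windows. The C/EBP-ATF element TGATGNAA, which factors such as ATF4 and CHOP can bind, was in 0 of the 15 and in 3.5% of all. The forkhead element GTAAACA was in 2 of the 15, at Bcl2l11 and at Bbc3, and in 3.2% of all, and the E-box CACGTG was in 2, at Bax and at Bbc3, and in 6.0% of all. A match describes letters in the window and no binding.

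Among the survival genes, Mcl1, which encodes a short-lived protein that restrains BAK, had higher values on each knockdown array without passing the test. It gave 10.19, 10.18 and 10.05 on control arrays against 10.38, 10.32 and 10.33 on knockdown arrays. The lowest knockdown array thus stood above the highest control array. On the log2 scale this was a difference of 0.20 (SE 0.0712, 95% confidence interval 0.0434 to 0.37, adjusted p = 0.111), or 115% of the control signal. When the variance was modelled without a trend over intensity, Mcl1 passed (adjusted p = 0.0407), and in the other fits over at least 5 arrays its adjusted p was 0.085 or higher.

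Bcl2, the founding member and the gene of a survival protein of mitochondria and endoplasmic reticulum, was measured by a pair of probes for different transcripts. The brighter probe gave 6.668, 6.615 and 6.565 on control arrays against 6.531, 6.545 and 6.557 on knockdown arrays. Control replicate 3 lay just above the highest knockdown array, so the groups did not overlap, but by a narrow margin. The brighter probe differed by -0.0712 on the log2 scale (SE 0.0417, 95% confidence interval -0.17 to 0.0230, adjusted p = 0.343), and by -0.11 with a smaller offset of 16. The dimmer probe gave 6.053, 5.997 and 6.015 on control arrays against 6.046, 5.992 and 6.002 on knockdown arrays. These groups overlapped, with a log2 fold change of -0.0085 (adjusted p = 0.881 over all probes). Its raw signal of 70.8 to 76.4 was close to the detection limit, where the offset of the background correction makes changes smaller.

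Bcl2l1, which encodes BCL-XL, overlapped between the groups. It gave 6.55, 6.57 and 6.52 on control arrays against 6.49, 6.57 and 6.65 on knockdown arrays, so the knockdown arrays held both the lowest and the highest value. The log2 fold change was 0.0213 (SE 0.0484, 95% confidence interval -0.0880 to 0.13, adjusted p = 0.836).

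Of the effector pair, Bak1 was measured. Bak1, whose protein sits in the outer mitochondrial membrane, gave 6.025, 5.997 and 5.968 on control arrays against 6.014, 5.951 and 6.002 on knockdown arrays. The arrays overlapped, and the raw signal of 69.2 to 74.8 was close to the detection limit. The log2 fold change of -0.0077 had a 95% confidence interval of -0.0648 to 0.0495 (adjusted p = 0.893).

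**Figure D1:**
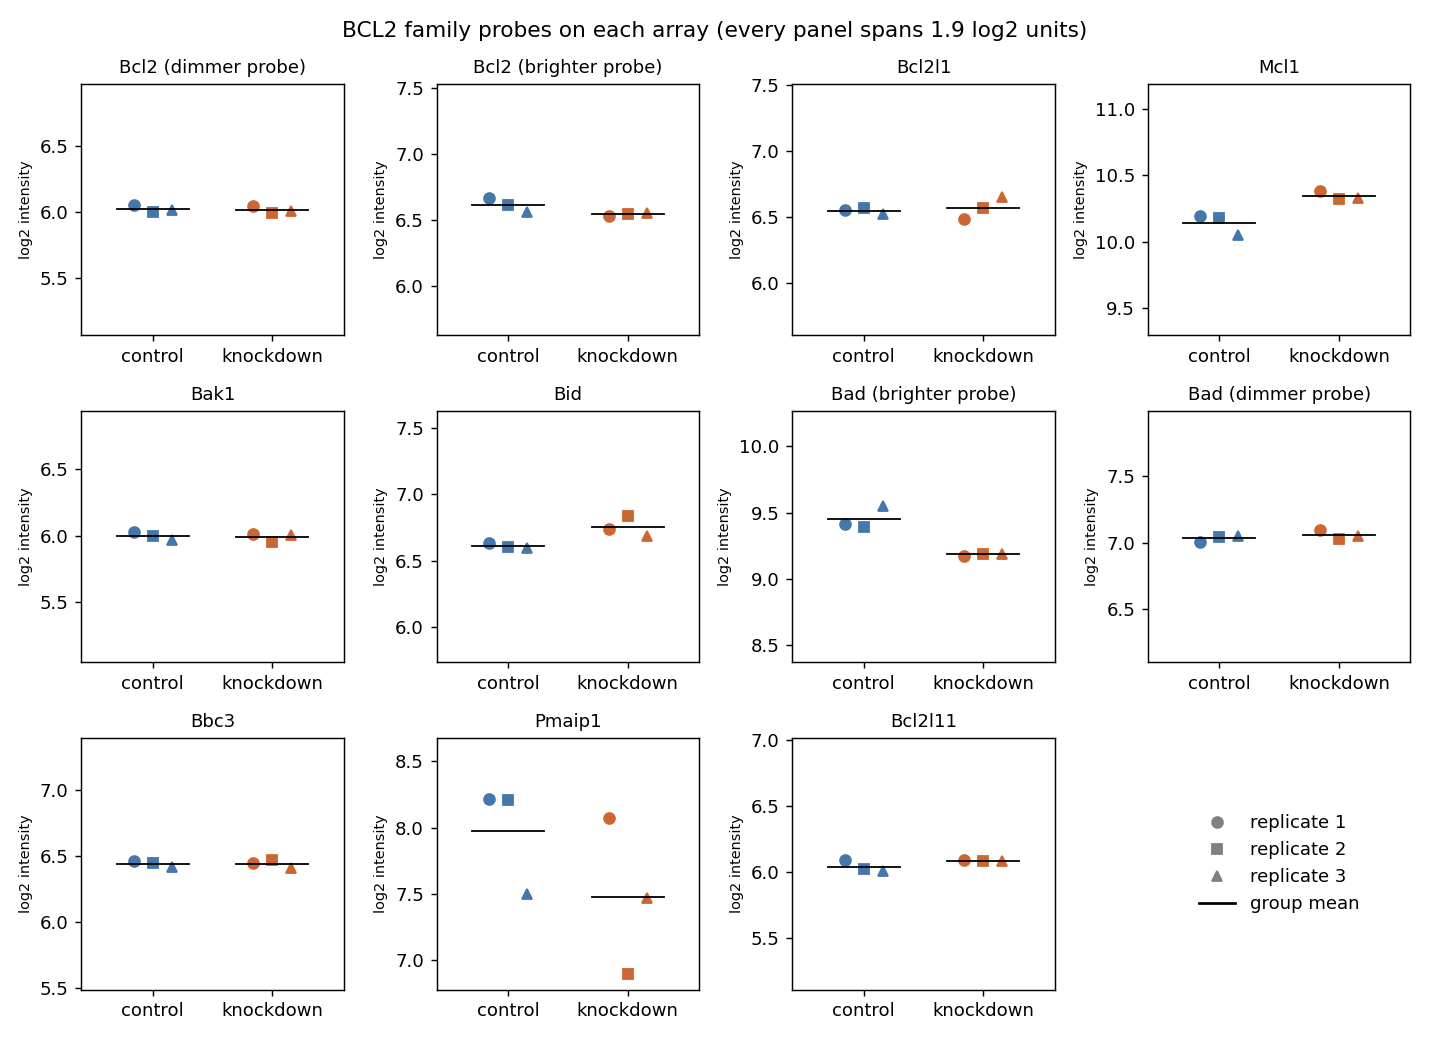
Each panel plots the normalized log2 intensity of a probe on the 3 control and 3 knockdown arrays, with the replicate number as the symbol and the group mean as a line, and all panels span the same range. The brighter Bad probe and Mcl1 show separate groups, while the Pmaip1 arrays spread from 6.89 to 8.22 across both groups.

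Among the BH3-only genes, Bad fell. BAD is a sensitiser that binds BCL2 and BCL-XL and is kept inactive when growth factor signalling phosphorylates it. Its brighter probe gave 9.42, 9.39 and 9.55 on control arrays against 9.18, 9.19 and 9.19 on knockdown arrays. Each knockdown array was below each control array, and the knockdown values lay close together. The means were 9.45 ± 0.0846 (SD, n = 3) and 9.18 ± 0.0079 (SD, n = 3). Bad thus fell by 0.27 on the log2 scale (SE 0.0696, 95% confidence interval -0.43 to -0.11, adjusted p = 0.0439), to 83.1% of the control signal.

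The call for Bad lay close to the threshold. It was lost when any 1 of the 6 arrays was left out, with adjusted p from 0.0560 without control replicate 1 to 0.123 without knockdown replicate 1, while the log2 fold change stayed between -0.30 and -0.22. It was also lost with median scaling (0.109), in the authors' processed values (0.0685), without a filter on dim probes (0.0504) and with gain set as a covariate (0.0579). Within the first gain set the log2 fold change of Bad was -0.21 (adjusted p = 0.583) and within the second -0.37 (adjusted p = 0.198). The other Bad probe, annotated to the same transcript, did not show the difference. It gave 7.01, 7.04 and 7.05 on control arrays against 7.09, 7.03 and 7.05 on knockdown arrays, for a log2 difference of 0.0249 (SE 0.0472, 95% confidence interval -0.0816 to 0.13, adjusted p = 0.808 over all probes). The sequences of the probes were not used here, so which part of the transcript each reads was not tested.

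Bid, whose protein links death receptors to mitochondria after cleavage by caspase-8, had higher values in the knockdown without passing. It gave 6.63, 6.60 and 6.59 on control arrays against 6.74, 6.83 and 6.69 on knockdown arrays. No knockdown array reached down to a control array. The log2 fold change was 0.14 (SE 0.0486, 95% confidence interval 0.0338 to 0.25, adjusted p = 0.102), and it was 0.21 with a smaller offset of 16 (adjusted p = 0.0947).

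Pmaip1, which encodes the MCL1-binding protein NOXA, varied most among the 9 genes within each group. It gave 8.22, 8.21 and 7.50 on control arrays against 8.07, 6.89 and 7.47 on knockdown arrays. Control replicate 3 was lower than knockdown replicate 1, so the groups overlapped. The means were 7.97 ± 0.41 (SD, n = 3) and 7.48 ± 0.59 (SD, n = 3). Their log2 difference was -0.49 (SE 0.282, 95% confidence interval -1.13 to 0.14, adjusted p = 0.329).

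The value of Pmaip1 depended on which arrays were set against each other. Within the first gain set the log2 fold change of Pmaip1 was -1.32 (adjusted p = 0.0125 in limma), and within the second it was 0.28 (adjusted p = 0.570). Each of these fits sets 2 arrays against 1 and assumes that the lone array varies like the others. Without knockdown replicate 2 the log2 fold change was -0.20, and without knockdown replicate 1 it was -0.79. Arrays with the same replicate number differed by little for replicates 1 and 3, and for replicate 2 the knockdown array was far below the control array. With the replicate number as a block the adjusted p was 0.127.

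Bbc3, which encodes PUMA, a BH3-only protein induced by p53, did not separate the groups. It gave 6.46, 6.44 and 6.42 on control arrays against 6.44, 6.47 and 6.41 on knockdown arrays. The log2 fold change was 7.3e-05, with a 95% confidence interval of -0.0791 to 0.0792 (adjusted p = 0.999).

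Bcl2l11, which encodes BIM, a protein that rises when growth factor signals are withdrawn, gave 6.09, 6.02 and 6.01 on control arrays against 6.09, 6.08 and 6.08 on knockdown arrays. Control replicate 1 lay among the knockdown arrays. Its log2 fold change was 0.0454 (SE 0.0266, 95% confidence interval -0.0148 to 0.11, adjusted p = 0.344), or 0.0933 with an offset of 16, and the raw signal of 72.0 to 78.7 was close to the detection limit.

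**Figure D2:**
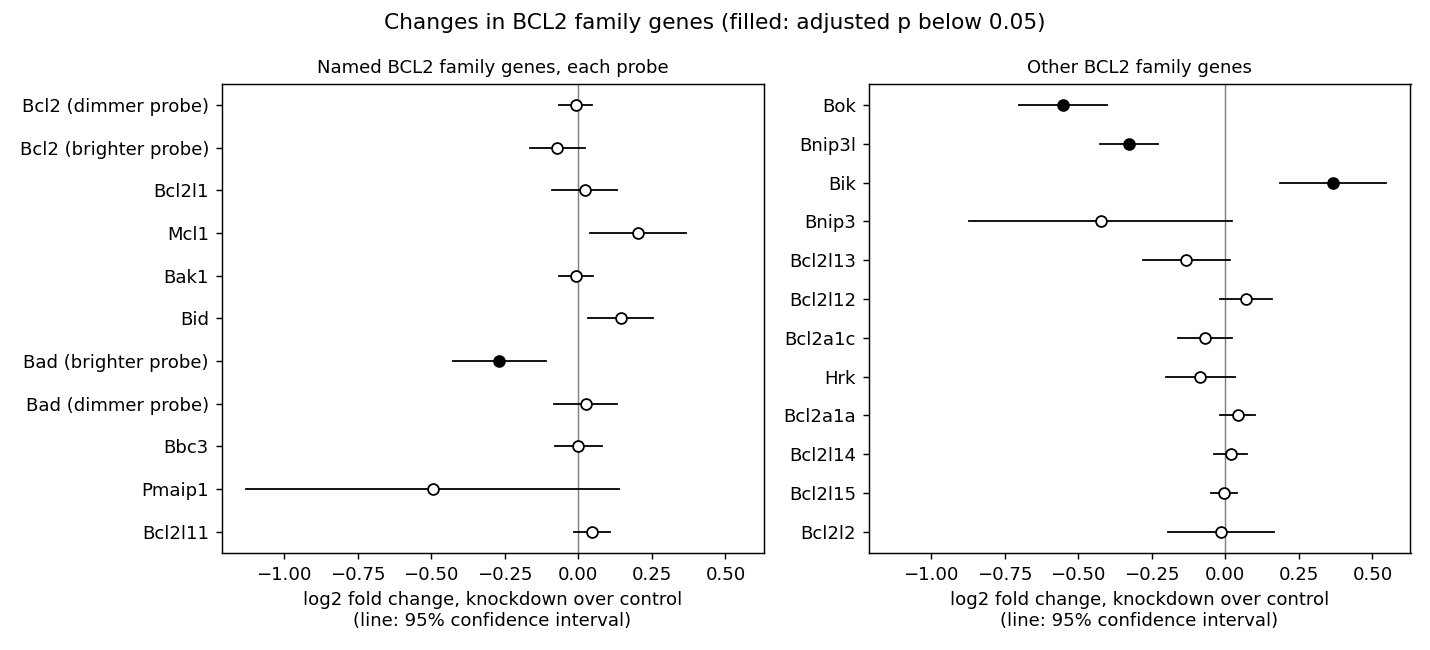
Points give the log2 fold change of knockdown over control and lines its 95% confidence interval, for each probe of the named genes on the left and for the other BCL2 family genes on the right, with filled points past an adjusted p of 0.05. On the left the brighter Bad probe is filled at -0.27, and on the right Bok (-0.55), Bnip3l (-0.33) and Bik (0.37) are filled.

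Among the rest of the BCL2 family, Bok and Bnip3l fell and Bik rose. Of 12 further family genes tested, 1 rose, 2 fell and 9 did not pass, so 25% passed, beside 9.64% of all genes. Their median log2 fold change was -0.0417. Bok, which encodes an effector related to BAX and BAK, gave 8.102, 8.160 and 8.003 on control arrays against 7.494, 7.616 and 7.498 on knockdown arrays. The groups were well apart, and Bok fell by 0.55 on the log2 scale (SE 0.0661, adjusted p = 0.00208), to 68.2% of the control signal. Bnip3l, which encodes the mitophagy receptor NIX, a distant relative of the family, gave 6.68, 6.75 and 6.68 on control arrays against 6.36, 6.43 and 6.34 on knockdown arrays. It fell by 0.33 on the log2 scale (SE 0.0434, adjusted p = 0.00318), and its log2 fold change was -0.52 with an offset of 16. Both Bok and Bnip3l passed without any 1 of the 6 arrays, with adjusted p up to 0.0132 and 0.0193.

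Bik, which encodes a BH3-only protein of the endoplasmic reticulum, rose. It gave 6.09, 6.39 and 6.12 on control arrays against 6.59, 6.64 and 6.46 on knockdown arrays, and the groups did not overlap. Bik rose by 0.37 on the log2 scale (SE 0.0797, adjusted p = 0.0229), and the authors' processed values gave 0.60 and an offset of 16 gave 0.63. Its control values lay near the dim end of the range, where the size depends on the offset. The call was lost on leaving out control replicate 1, control replicate 3, knockdown replicate 1 or knockdown replicate 2 (adjusted p up to 0.0839), in the authors' processed values (0.0530) or without a variance trend (0.0634). The hypoxia-responsive relative Bnip3 gave 9.81, 10.09 and 9.42 on control arrays against 9.44, 9.65 and 8.95 on knockdown arrays. These groups overlapped, although each knockdown array was below the control array of its own number. Bnip3 had a log2 fold change of -0.42 (95% confidence interval -0.87 to 0.0241, adjusted p = 0.229), and it passed with the replicate number as a block (adjusted p = 0.00334). Bcl2l2, which encodes the survival protein BCL-W, had a log2 fold change of -0.0147 (95% confidence interval -0.20 to 0.17). Bcl2a1a and Bcl2a1c belong to a cluster of near-identical genes, so their signal cannot be assigned to a copy with certainty, and neither passed.

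At the mitochondria and downstream of them, 13 genes of the apoptosome, caspases and mitochondrial release were tested. Of these 2 rose, none fell and 11 did not pass (median 0.0529). Thus 15.4% of this list passed, beside 9.64% of all genes. Cycs, the gene of cytochrome c, gave 11.20, 11.16 and 11.27 on control arrays against 11.65, 11.54 and 11.48 on knockdown arrays. It rose by 0.35 on the log2 scale (SE 0.0741, adjusted p = 0.0212). Vdac2, which encodes an outer membrane channel that recruits BAK, gave 11.73, 11.64 and 11.81 on control arrays against 12.25, 12.01 and 12.09 on knockdown arrays, and it rose by 0.40 (SE 0.0833, adjusted p = 0.0203). For both genes the groups did not overlap. The call for Cycs was lost on leaving out control replicate 2, knockdown replicate 1 or knockdown replicate 2 (adjusted p up to 0.0793). That for Vdac2 was lost on leaving out control replicate 2, knockdown replicate 1 or knockdown replicate 3 (up to 0.0763). With median scaling neither passed (0.0799 and 0.0585), nor did either in the authors' processed values (0.0916 and 0.083). With gain set as a covariate Cycs did not pass (0.0516).

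Apaf1, the scaffold of the apoptosome, had a log2 fold change of -0.0140 and Casp9, its caspase, one of -0.0056, both with overlapping groups. Casp9 had a control mean of 5.98, near the dim end of the range, where a change is hard to see. Of 10 tested inhibitors of apoptosis and other caspase brakes none rose and none fell in limma (median -0.0553), beside 9.64% of all genes that passed. Beside 24.6% of all genes, 0 of these 10 had an unadjusted p below 0.05. Those with the smallest p were Faim (log2 fold change -0.14, adjusted p = 0.245) and Xiap (-0.0420, adjusted p = 0.249), the latter encoding a direct caspase inhibitor. Xiap was also dim, with a control mean of 5.95. Cflar, which encodes the caspase-8 regulator FLIP, had probes of nearly the same mean intensity that differed in sign, so its call depended on which probe stood for it. The probe taken had group means of 6.41 in the controls and 6.35 in the knockdown (log2 fold change -0.0656, adjusted p = 0.372). The other had 6.28 and 6.48 (log2 fold change 0.20, adjusted p = 0.0389 over all probes). It stood for Cflar in the fit without background correction, where Cflar passed (0.19, adjusted p = 0.0370).

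Of 8 tested death receptor genes and adaptors 1 rose, none fell and 7 did not pass (median 0.0344), so 12.5% passed, beside 9.64% of all genes. Tnfrsf21, which encodes death receptor 6, gave 6.20, 6.22 and 6.20 on control arrays against 6.44, 6.29 and 6.38 on knockdown arrays. The groups were apart, and Tnfrsf21 rose by 0.16 on the log2 scale (SE 0.0398, adjusted p = 0.0365). Its log2 fold change was 0.28 with an offset of 16, 0.26 in the authors' processed values, 0.0807 within the first gain set and 0.21 within the second. It passed without knockdown replicate 2 and in none of the fits that left out another array (adjusted p up to 0.116). It did not pass in the authors' processed values (0.069), without a variance trend (0.0602) or with gain set as a covariate (0.0783). Fas, the gene of the receptor for FAS ligand, gave 7.68, 8.44 and 8.13 on control arrays against 8.35, 8.54 and 8.50 on knockdown arrays, with overlapping groups. Fas had a log2 fold change of 0.38 (95% confidence interval 0.0134 to 0.75, adjusted p = 0.187), and it passed with the replicate number as a block (adjusted p = 0.0265).

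**Figure D3:**
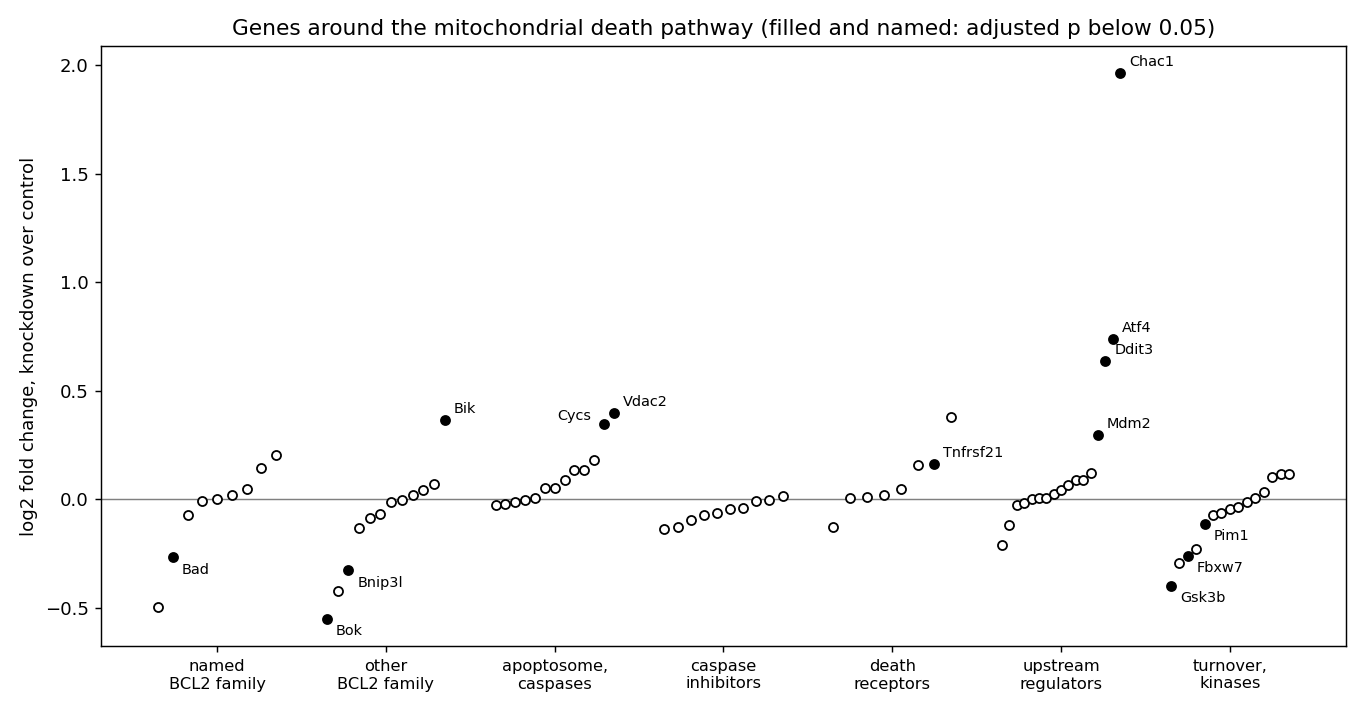
Each point is the log2 fold change of a tested gene in the named BCL2 family or in a related list, with filled and named points past an adjusted p of 0.05. Apart from Chac1 at 1.96, the filled points lie between -0.55 and 0.74.

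Of 17 tested genes in a list of regulators upstream of the family and their readouts, 4 rose, none fell and 13 did not pass (median 0.0415). Thus 23.5% passed, beside 9.64% of all genes. This list was chosen with earlier results of these data known, and it holds Chac1, the largest rise among all genes tested. Its share is therefore not an independent result. The stress response gene Ddit3 encodes CHOP, a factor known to act on Bcl2l11 and Bbc3. It gave 7.99, 8.12 and 8.04 on control arrays against 8.82, 8.61 and 8.64 on knockdown arrays (log2 fold change 0.64, adjusted p = 0.00201). Atf4, the factor above it (0.74, adjusted p = 0.00322), and Chac1, a readout of that arm (1.96, adjusted p = 4.2e-04), rose too. Trib3, another gene of this list, overlapped between the groups, with a log2 fold change of 0.0654 (adjusted p = 0.343). Its control mean of 6.19 was near the dim end of the range, where the offset makes changes smaller. Mdm2, the p53 target that degrades p53, rose by 0.30 (adjusted p = 0.0422), a call lost whichever of the 6 arrays was left out (up to 0.131), with median scaling (0.129), with gain set as a covariate (0.0809) and in the authors' processed values (0.162). Myc, a factor known to sensitise cells to death, had a log2 fold change of -0.21 (adjusted p = 0.0635), and it passed with the replicate number as a block (adjusted p = 0.0283). On the same arrays the log2 fold change of Bbc3 was 7.3e-05, that of Bcl2l11 0.0454 and that of Pmaip1 -0.49, and none of these passed. The signal of Bcl2l11 was close to the detection limit, where a change is hard to see. The forkhead gene Foxo3, whose protein acts on Bcl2l11 and Bbc3, had a log2 fold change of 0.12 (adjusted p = 0.699). A dimmer Foxo3 probe gave -0.0317 (adjusted p = 0.388 over all probes). Foxo1, another forkhead gene of the list, was higher on each knockdown array without passing (0.0865, adjusted p = 0.184).

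Of 15 tested genes for MCL1 turnover and for kinases and scaffolds that act on BAD, BIM or MCL1, 3 fell, none rose and 12 did not pass (median -0.0440). Thus 20% of this list passed, beside 9.64% of all genes. Gsk3b, whose kinase marks MCL1 for degradation, gave 7.75, 7.54 and 7.64 on control arrays against 7.19, 7.25 and 7.29 on knockdown arrays. The groups did not overlap, and the log2 fold change was -0.40 (SE 0.0666, adjusted p = 0.00777), which passed without any 1 of the 6 arrays (up to 0.0397). Fbxw7, which encodes a ubiquitin ligase subunit for MCL1, gave 8.998, 9.098 and 9.024 on control arrays against 8.721, 8.856 and 8.759 on knockdown arrays and fell by 0.26 (adjusted p = 0.0449). That call was lost whichever of the 6 arrays was left out (up to 0.145), with median scaling (0.078), with cyclic loess (0.054), without a filter on dim probes (0.0504) and with gain set as a covariate (0.0943). The other Fbxw7 probe had a log2 fold change of -0.0536 (adjusted p = 0.738 over all probes).

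Pim1, which encodes a kinase that phosphorylates BAD, gave 6.12, 6.11 and 6.08 on control arrays against 5.99, 6.01 and 5.97 on knockdown arrays. The groups were apart, and Pim1 fell by 0.11 on the log2 scale (SE 0.0233, adjusted p = 0.0188), near the dim end of the range. The size depended on the offset, and the authors' processed values gave -0.22 and an offset of 16 gave -0.23. The call was lost on leaving out control replicate 2, knockdown replicate 1 or knockdown replicate 3 (adjusted p up to 0.0732), with median scaling (0.05003) and in the authors' processed values (0.0505). Akt1 and Akt2, kinases that also phosphorylate BAD, had log2 fold changes of -0.0373 and 0.10 (adjusted p = 0.796 and 0.346). Huwe1, a ubiquitin ligase for MCL1, differed by -0.0440 (adjusted p = 0.744) and Usp9x, a deubiquitinase for MCL1, by -0.0140 on that scale (adjusted p = 0.763). Usp9x was dim, with a control mean of 5.89, where a change is hard to see. Ywhae (log2 fold change -0.29, adjusted p = 0.0728) and Bag6 (-0.23, adjusted p = 0.104) were lower on each knockdown array without passing. Ywhae passed when the arrays were weighted (adjusted p = 0.0411). The groups did not overlap for 6 of the 15 genes, beside 29.9% of all genes, and 5 of the 15 had a positive log2 fold change.

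Markers of cell types were read on the same arrays. Of 7 tested precursor markers 5 fell (Pdgfra, Cspg4, Lhfpl3, Sox10 and Olig2), beside 5.15% of all genes that fell. The marker counts below stand beside 9.64% of all genes that passed in either direction. The summed raw signal of the precursor list was 12921 to 15106 in the controls and 10034 to 12079 in the knockdown. This sum was not normalized between arrays, and all 7 markers were above the detection limit on all 6 arrays. Olig1 alone, at 6879 to 9949 raw units over the 6 arrays, made up most of that sum, and it did not pass (log2 fold change -0.24, adjusted p = 0.248, overlapping groups). In bulk RNA fewer cells of a type and less RNA per cell cannot be told apart. The sum over 7 astrocyte markers was 4633 to 5455 in the controls and 4646 to 5923 in the knockdown, with 0 of 7 passing. The 7 oligodendrocyte markers summed to 1352 to 1870 and 1438 to 1653, with 0 of 7 passing, and the 8 neuronal markers to 709 to 818 and 754 to 841, with 1 of 7 tested passing, Map2 at -0.12. Sums over 8 microglial markers were 650 to 660 and 656 to 712, over 6 endothelial markers 416 to 451 and 439 to 470, over 7 of pericytes and fibroblasts 556 to 581 and 566 to 600, and over 3 of blood 241 to 247 and 237 to 259. None of the tested markers in these last lists passed. Slc17a6, Tek and Cldn5 were above the detection limit on 0 arrays, Itgam on 1 and Pecam1 on 2, and these were not tested. Each sum runs over all probes of a list and includes background, as blank spots averaged 58.9 to 61.9 per array. The median raw signal was 62.8 for endothelial, 67.9 for pericyte and fibroblast, 75.3 for microglial and 80.1 for blood probes. These sums are therefore largely background. For neuronal probes the median was 94.7, so background is a large part of that sum too. The part of the cell type markers in the values of the BCL2 family genes was not tested.

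**Figure D4:**
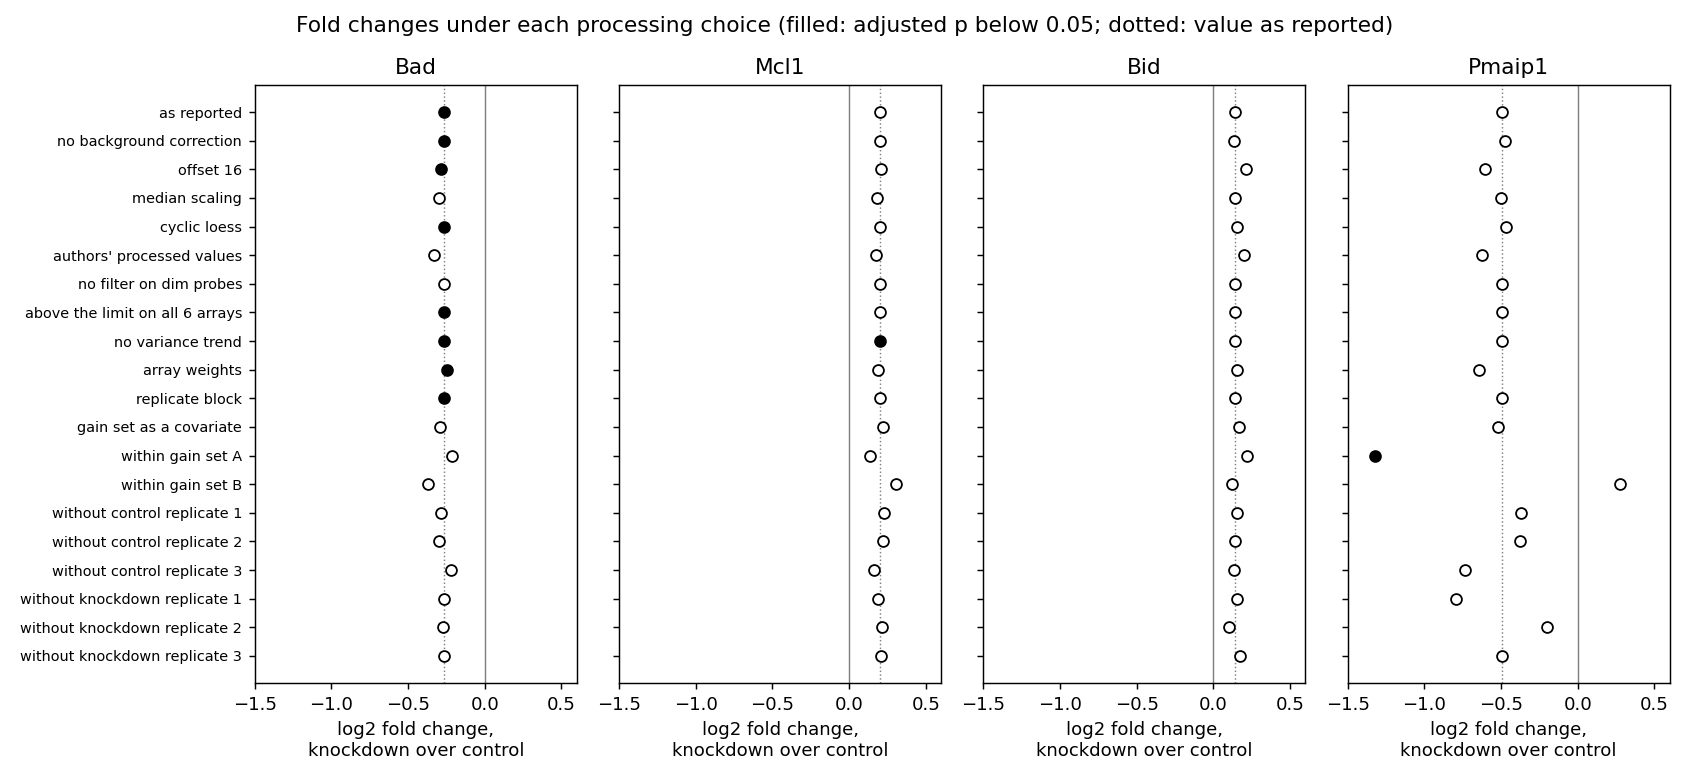
Points give the log2 fold change of Bad, Mcl1, Bid and Pmaip1 under each processing choice, with filled points past an adjusted p of 0.05 and the dotted line at the value as reported. The plotted probes of Bad, Mcl1 and Bid keep their sign under each of the choices drawn, which leave out the dimmer Bad probe (0.0249), and Pmaip1 ranges from -1.32 to 0.28 within the gain sets.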

How the data were processed

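The authors deposited 1 scanner file per array. Per the file headers, the deposited intensity is a per-spot median at 635 nm, and readings at 3 gains were joined by least squares. RNA was amplified and coupled to Cy5, per the labels' protocols. A second set of processed intensity values deposited by the authors served as an alternative, on a linear scale with a median of 25 on each array, put on the log2 scale after adding 16. Its centring is not stated in any source here, and it holds levels with no direction. Spot intensities were corrected with normexp (offset 50, no local background), quantile normalized over all 23473 probes and put on the log2 scale in limma 3.58.1 (R 4.3.3). The offset makes the changes of dim genes smaller. Probes were tested where their signal passed the blank mean plus 2 SD on 3 or more of 6 arrays, and 1 gene probe marked bad at all gains was left out. Symbols came from the platform annotation (20690 probes with 1 symbol, 2783 with none, 0 with several). By Entrez ID 20556 matched RefSeq (GRCm38.p6), with 0 symbols changed.

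A gene was represented by its probe with the highest mean, and 17390 genes were tested with lmFit and eBayes with a trend. Tests are two-sided, with Benjamini-Hochberg adjustment over all genes, or over 20957 probes where a single probe is given. Named were all BCL2 family genes with each probe, Chd7, and of each related list those that passed (at most 6) or, where none did, the 2 with the smallest p. Any other list gene named beside these was picked after seeing its values. The members and lists were chosen with earlier results of these data known.

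Between arrays of the same replicate number, deviations from group means had correlations of 0.37, 0.39 and 0.22. The fits as reported had no block and did not pair the arrays. A block on the replicate number was run as an alternative. The labels do not say what a number marks. The procedure was tested on simulated data, with changes put into brighter genes only and no pairing of arrays. That test does not cover small changes in dim genes. Figures were drawn with matplotlib 3.10.9.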

Additional observations from a re-analysis of the deposited data

How the results depend on the processing

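Alternatives were background correction, offset, normalization, the authors' processed values, filters on dim probes, variance models, the replicate number as a block, scanner gain set, the threshold, single probes and the omission of each array. Of the BCL2 family genes 1 passed as reported. The number was 0 with median scaling, in the authors' processed values, without a filter on dim probes, with gain set as a covariate and within the second gain set, where 7.61%, 6.58%, 8.19%, 6.67% and 0.224% of all genes passed, and 2 without a variance trend (10.4% of all genes), where Mcl1 joined Bad. Within the first gain set (0.224% of all genes) the 1 gene that passed was Pmaip1 and not Bad. It was 0 to 0 when any 1 array was left out. Counted over probes, the number was also 0 under these settings and 2 without a variance trend, and it was 0 with cyclic loess. With the replicate block the BCL2 family count stayed at 1 (Bad, adjusted p = 0.0307), and no call among the 9 genes changed. Bnip3, Fas and Myc passed in addition.

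Over all genes 1677 passed as reported, 2577 with the replicate block, 2688 at an adjusted p below 0.1, 39 within each gain set, and 750 to 1453 when 1 array was left out. The related lists held 12, 13, 10, 8, 17 and 15 tested genes. Of all these list genes 13 passed as reported, 8 with median scaling, 7 in the authors' processed values and 6 to 9 when 1 array was left out. The shares of all genes in these fits were 9.64%, 7.61%, 6.58% and 4.31% to 8.36%. Chd7 had log2 fold changes of -0.88 and -0.95 within the gain sets without passing (adjusted p = 0.101 and 0.0591). Signs turned for the dimmer Bad probe (0.0249), for Pmaip1 within the second gain set (0.28), for Bak1 there (0.0404) and for Bbc3 in the authors' processed values (-0.0111). When 1 array was left out, Bcl2l1 ran from -0.0192 to 0.0627, Bak1 from -0.0222 to 0.0113 and Bbc3 from -0.0126 to 0.0141. The cause of these changes of sign was not tested. Fits within gain sets and those that left out an array also held fewer arrays. The dimmer Bcl2 probe, Bak1 and Bcl2l11 had signals close to the detection limit, where a change is hard to see.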
